A study of Mus musculus with 120 samples.

Results

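Single mouse group 2 innate lymphoid cells (ILC2s) recovered 30 min after the onset of IL-5 secretion were compared with single ILC2s recovered in the activated state. The cells were chosen by their labels alone, as those indexed on IL-5 whose state was given as transition at 30 min (11 cells) or as activated (11 cells), and cells with under 10000 reads on genes were left out. This kept 10 cells at 30 min and 11 activated cells, 21 of the 120 single-cell libraries of the series. One cell at 30 min, with 73 gene reads, was left out.

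The study followed cytokine secretion from each living ILC2 under a microscope and picked cells at a set time after secretion began, so that a short transition could be read as a transcriptome. All cells came from the mesentery of 20 wildtype C57BL/6 mice, pooled, and were sorted as lineage-negative cells carrying c-Kit and Sca-1. They were then grown in culture for months and stimulated with IL-2 and IL-33, which the cells of both groups received. Cells called activated were found secreting hours after stimulation began, whatever the time of their own onset. The labels give no time since stimulation for any cell and no onset time for an activated cell. The states can thus differ in time since stimulation and in time since onset, by amounts that are not known, and these cannot be told apart.

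No cell carries a label for the animal or culture it came from, and each group was therefore treated as 1 sample, with no test and no p-value. The titles carry 2 dates. On the first there were 5 cells at 30 min and 5 activated cells, and on the second 5 and 6. Libraries were pooled in sets of 5 or 6 before fragmentation, and the titles give each state on each date a sample number of its own, so that a state and its pool cannot be told apart within a date. A difference was called only where it reached 2-fold in the same direction on both dates.

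ILC2s are tissue-resident lymphocytes without antigen receptors that respond to alarmins, such as IL-33, with type 2 cytokines. IL-5 recruits and sustains eosinophils, and IL-13 acts on epithelium, muscle and macrophages. IL-33 signals through its receptor, ST2, to NF-kB and AP-1 factors, IL-2 signals through STAT5, and secretion of a cytokine also loads the endoplasmic reticulum (ER) with new protein to fold.

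Depth was similar in both groups. The cells at 30 min held 231240 to 464846 gene reads (median 358946), and the activated cells held 223789 to 465179 (median 325825). Markers of ILC2s were present, with 15 of 15 read at 30 min and 13 of 15 in activated cells. Summed over the list, the level per cell was 7402 to 18260 CPM (reads of the gene per 1000000 gene reads) at 30 min and 5390 to 14550 CPM in activated cells. Il7r, which encodes a receptor chain used to sort ILC2s, was read in 2 of 10 and 3 of 11 cells. The markers of B cells, natural killer cells and ILC3s were at 0 in all 21 cells. Of the 10 T cell markers 2 were read in each group, at up to 1416 CPM in all at 30 min and 892 CPM in activated cells. Trbc2, a constant region gene of the T cell receptor, was among them in both groups. It was read in 10 of 10 cells at 30 min and 10 of 11 activated cells, at summed levels of 567 and 295.5 CPM. Cd3g was also read at 30 min, in 2 cells, and Lck in 1 activated cell. Cd3d, Cd3e, Cd4, Cd8a and Trac were at 0. Of 7 myeloid and 8 mast cell or basophil markers, none was read at 30 min. In activated cells 1 of each was read, Adgre1 in 1 cell and Fcer1a in 2 cells, up to 454 and 2093 CPM in a cell. The part of these in the results was not tested. Mitochondrially encoded genes made up 1.46% to 2.48% of reads at 30 min and 1.05% to 2.76% in activated cells.

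Il5 itself, at chr11:53720794-53725106 (GRCm38), was read in every cell of both groups. The cells at 30 min held 316 to 11740 CPM of Il5, with a median of 3661 CPM. The activated cells held 63.9 to 11290 CPM, with a median of 1332 CPM. The groups overlapped almost over their whole range, and 8 of 10 cells at 30 min against 6 of 11 activated cells lay at or above 1000 CPM. Summed over cells, the level was 4602 CPM at 30 min and 2929 CPM in activated cells, a log2 ratio of 0.65 (95% interval from 0.62 to 0.69, counting error only). The ratio was 0.93 on the first date and 0.42 on the second, so that Il5 was not called. A single activated cell, replicate 7, held 43.2% of the activated reads of Il5, and without it the log2 ratio was 1.30.

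Because Il5 is the gene on whose product the cells were indexed, the start of the gene is shown, from 250 bases before to 50 after the RefSeq start (GRCm38.p6, plus strand, chr11:53720544-53720843). Of the letters searched on both strands (TGANTCA for AP-1, 3 G, any 5 bases and 2 C for NF-kB, AGATAA for GATA factors and TTCNNNGAA for STAT factors), none was found in this window. A match of letters is a description, and the lack of one says only that these letters are not in the window.
Il5: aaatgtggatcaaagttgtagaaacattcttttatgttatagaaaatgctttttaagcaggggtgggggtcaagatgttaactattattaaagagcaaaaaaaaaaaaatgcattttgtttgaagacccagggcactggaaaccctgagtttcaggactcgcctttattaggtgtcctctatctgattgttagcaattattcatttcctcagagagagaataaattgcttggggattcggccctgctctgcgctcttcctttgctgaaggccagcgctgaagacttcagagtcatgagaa

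Il13 resembled Il5. Its level was 154 to 6480 CPM at 30 min (median 1567) and 6.09 to 4186 CPM in activated cells (median 528). The summed log2 ratio was 0.94, from 1.30 on the first date to 0.46 on the second, and the cells of the groups overlapped. Cells that secrete IL-5 thus held Il13 RNA in both states, 10 of 10 at 30 min and 11 of 11 in the activated state.

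Among the other cytokines, Il9, Il6 and Penk were called lower at 30 min and Tnf was called higher. Il9, which encodes a growth factor of ILC2s and mast cells, was lower at 30 min by 3.48 on the log2 scale (first date -1.38, second date -3.70). The level of Il9 was 6.64 to 39600 CPM at 30 min, with a median of 48.9 CPM, and 27.4 to 229100 CPM in activated cells, with a median of 580 CPM. The spread between cells was wider than the difference: 2 cells at 30 min (replicates 3 and 8) and 5 activated cells were above 10000 CPM, and in activated replicates 6, 7 and 9 Il9 alone made up 22.9%, 17.1% and 12.4% of gene reads. The log2 ratio was -5.63 without 30 min replicate 8 and -2.75 without activated replicate 6.

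Il6, an inflammatory cytokine, had a log2 ratio of -3.26 (-4.23 and -2.20 on the dates). The level was 0 to 1064 CPM at 30 min (median 104) and 4.78 to 11370 CPM in activated cells (median 518). At 30 min, replicates 1, 3 and 4 had no read of Il6, and every activated cell had at least 1. Penk, the precursor of enkephalin peptides, was at 0 in all 10 cells at 30 min and was read in 5 of 11 activated cells, up to 2878 CPM. Of its 1300 activated reads, 656 remained without replicate 2 of the first date and 649 without replicate 11 of the second. Its call thus rested mostly on these cells. The log2 ratio to the floor went from -8.69 to -7.79 and -7.82 without them in turn. The chemokine gene Cxcl2 was likewise at 0 in all cells at 30 min and was read in 3 activated cells, up to 4733 CPM, so that its call rested on those 3; without activated replicate 5 the log2 ratio to the floor went from -9.28 to -4.51. The floor sets a group with under 3 reads to 3 reads, here and in every log2 ratio below, those of a single date or with a cell left out included, so that such a value depends on the floor.

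Of the 21 genes in the list of type 2 and effector cytokines, 11 reached the minimum of a mean of 50 CPM over the groups. Of these, 1 (Tnf) was called higher and 3 (Il9, Il6 and Penk) were called lower. Over all 2593 genes that reached that minimum, 288 (11.1%) were called higher at 30 min and 190 (7.33%) lower. The median log2 ratio was -0.77 in the cytokine list and 0.0044 over all genes, and that of the cytokines turned to 0.65 with a minimum of 10 CPM. Csf2, which encodes the cytokine GM-CSF, was not called, with a log2 ratio of -0.77 that was -1.50 without 30 min replicate 4. Its level was 15.1 to 47310 CPM at 30 min (median 4077) and 80.2 to 44580 CPM in activated cells (median 2696), so that the sum and the medians differed in direction. Il4 was read in 6 of 10 cells at 30 min and 10 of 11 activated cells, at medians of 28.4 and 130 CPM, and its log2 ratio was -0.78 on the first date and -1.58 on the second.

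**Figure D1:**
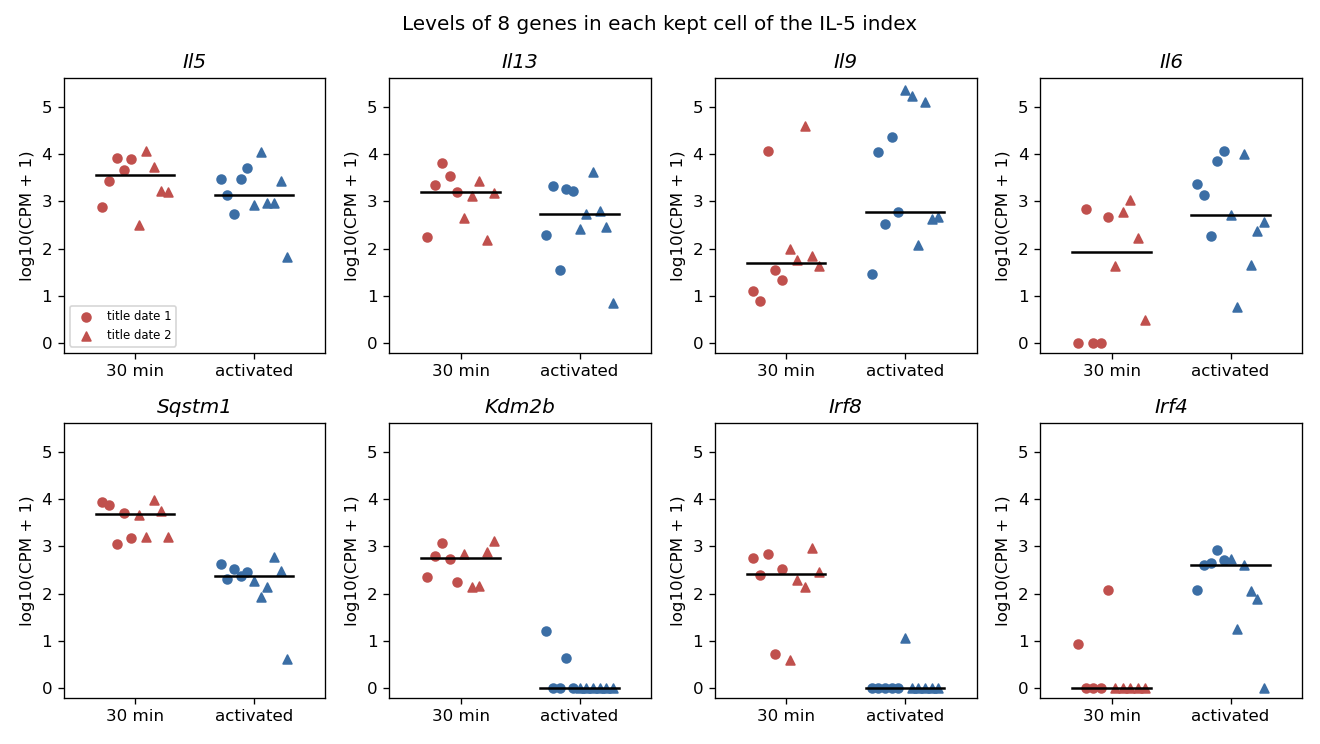
Each point is 1 kept cell of the IL-5 index, with its level as log10(CPM + 1) on the vertical axis and its state on the horizontal axis (red, 30 min; blue, activated; circles, first title date; triangles, second), and the bars are medians over cells. Il5, Il13, Il9 and Il6 overlap between the states, whereas every red point of Sqstm1 and Kdm2b lies above every blue point, and Irf4 is at 0 in 8 of 10 cells at 30 min.

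In 5 of the 2593 genes (0.193%) every cell at 30 min lay above every activated cell, and in 0 genes (0.0%) every cell at 30 min lay below. The 5 were Sqstm1, Kdm2b, Tmsb4x, Malat1 and the gene model Gm49339. These were singled out after their values were seen.

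Sqstm1 (chr11:50199366-50210827, minus strand) encodes p62, a scaffold of selective autophagy that also carries signals to NF-kB. Its level was 1103 to 9751 CPM at 30 min, with a median of 4830 CPM. In activated cells it was 3.04 to 582 CPM, with a median of 231 CPM. The lowest cell at 30 min was thus above the highest activated cell, and the summed levels, 4432 and 245 CPM, differed 18.1-fold (log2 ratio 4.17, interval from 4.08 to 4.27; 3.84 and 4.47 on the dates). Leaving out any 1 cell kept the log2 ratio between 3.94 and 4.36.

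Kdm2b (chr5:122870665-122989823, minus strand) encodes a histone demethylase that binds unmethylated CpG islands. It was read in 10 of 10 cells at 30 min, at 135 to 1265 CPM, with a median of 574 CPM. In activated cells it had 6 reads in all, in 2 of 11 cells, the higher of them at 15.2 CPM. The log2 ratio was 8.50 (interval from 7.37 to 9.94), and 9.36, to the floor, without activated replicate 1. The Rnf34 and A930024E05Rik genes overlap Kdm2b on the other strand, and Gm43411 and Gm44574 on the same strand. Since the strand setting of the counting is not given in the sources used here, reads of the partners cannot be told apart. Overlaps are also annotated for Sqstm1 (Mrnip, other strand) and for Irf8, described below (Gm20388, same strand).

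Tmsb4x (chrX:167207093-167209315, minus strand) encodes thymosin beta 4, which binds actin monomers. Its level was 21050 to 52140 CPM at 30 min (median 29280) and 1855 to 18740 CPM in activated cells (median 12040), a 3.19-fold difference of the sums. Malat1 (chr19:5795690-5802672, minus strand), a nuclear long non-coding RNA, was at 6905 to 18780 CPM at 30 min (median 9698) and 771 to 4294 CPM in activated cells (median 3022), a 4.14-fold difference. Both were thus abundant in every cell and higher at 30 min. Gm49339 (chr10:51480612-51496613, plus strand) spans Lilrb4a, the gene of an inhibitory receptor, so that reads of the pair cannot be told apart. Its level was 388 to 3337 CPM at 30 min (median 1615) and 0 to 377 CPM in activated cells (median 103), 11.7-fold in the sums.

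The other states of the IL-5 index place these levels. The state before stimulation holds 5 cells, all of the first date, whereas the other states span both dates. Sqstm1 was at 369 CPM before stimulation, at 1950 and 3360 CPM at 60 and 90 min after onset and at 601 CPM in cells that stayed silent, so that all 3 transition times lay above the other states. Kdm2b had the same order of transition times above the rest, with 43.7 CPM before stimulation, 195 and 390 CPM at 60 and 90 min and 53.2 CPM in silent cells. Tmsb4x and Malat1 differed in this respect: before stimulation they were at 31840 and 13090 CPM, close to their 30 min sums of 34140 and 10500 CPM, and the activated sums of 10710 and 2535 CPM were the lowest of the 6 states.

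**Figure D2:**
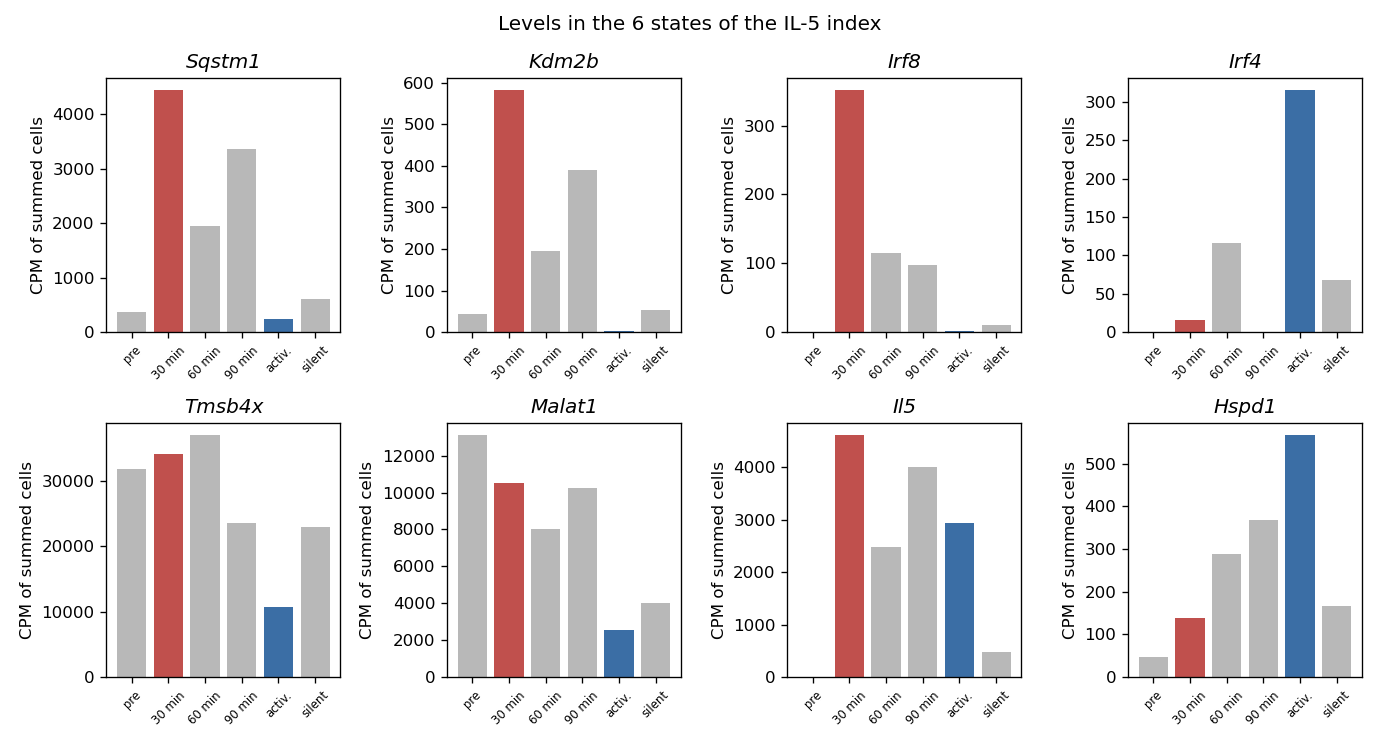
Bars give the level of 8 genes as CPM of the summed cells in the 6 states of the IL-5 index (red, 30 min; blue, activated; grey, pre-stimulation, 60 and 90 min after onset, and silent), each axis starting at 0 and scaled to its gene; there are no replicates of a state and no error bars. Sqstm1, Kdm2b and Irf8 are highest at 30 min, Irf4 and Hspd1 are highest in activated cells, and Tmsb4x and Malat1 are lowest there. The pre-stimulation cells are all of the first title date, whereas the other states span both.

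The strongest calls were then ranked by the log2 ratio on the date where it was smaller, among called genes read in at least 70% of the cells of the higher group whose direction held for the mean and median cell and on leaving out any 1 cell (163 of the 288 higher and 137 of the 190 lower genes). The 12 highest were Irf8, Kdm2b, Ctla2b, Adam8, Irf5, Fhl2, Nfkbid, Chd2, Pecam1, Adora2b, B4galt1 and Sqstm1. The 12 lowest were Glo1, Tmem238, Commd7, Prmt7, Psmg3, Irf4, Nans, Sdf2l1, Ncbp2, Alg3, Pes1 and Rpf1.

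Members of the interferon regulatory factor family stood at both ends. Irf8, a transcription factor of myeloid and lymphoid cells, was read in 10 of 10 cells at 30 min, at 3.01 to 932 CPM with a median of 265 CPM. In activated cells it was read in 1 of 11, at 10.8 CPM. At 30 min, replicates 4 and 6 had 1 read each, so that these cells lay within the activated range, and the summed log2 ratio was 8.03 (7.64 and 7.15 on the dates). Irf5, a factor downstream of innate receptors, had 565 reads in 7 of 10 cells at 30 min and 0 in activated cells, where 3 reads over the group, taken as the most that a count of 0 allows, come to 0.804 CPM, so that against this floor it was at least 198-fold higher at 30 min. This floor is used for every such bound here, and the counting error of the group with reads is not part of the bound. Without 30 min replicate 1 the log2 ratio of Irf5 to that floor went from 7.63 to 6.64.

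Irf4, a factor that activated lymphocytes need for their effector programmes, went the other way. Its level was 0 to 120 CPM at 30 min, with a median of 0, and 0 to 829 CPM in activated cells, with a median of 402. It was read in 2 of 10 and 10 of 11 cells, and the highest cell at 30 min, replicate 5, lay above 5 of the 11 activated cells. The log2 ratio was -4.35 (-3.71 and, to the floor, -7.10 on the dates), and -8.35, again to the floor, without 30 min replicate 5. Irf8 was at 0 before stimulation and at 115 and 97.9 CPM at 60 and 90 min, and Irf4 was at 0, 116 and 0.547 CPM in the same states.

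Among the other genes higher at 30 min, Ctla2b, a cysteine protease inhibitor expressed in lymphocytes, was at 0 in all activated cells and was read in 8 of 10 cells at 30 min, where 5 cells held at least 100 CPM; it was at least 434-fold higher. Adam8, a cell surface metalloprotease, was read in 9 of 10 cells at 30 min and in 0 of 11 activated cells (at least 269-fold). Chd2, a chromatin remodeller, was read in 8 and 0 cells (at least 139-fold). Ctla2b lies among near copies in its gene family, so that its reads may be split between them.

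Pecam1, an adhesion molecule of endothelium and leukocytes, had a log2 ratio of 6.76 and was read in 10 of 10 and 4 of 11 cells. It is also on the list of stromal, adipose and endothelial markers, of which the other 7 (Cdh5, Pdgfra, Dcn, Col1a1, Col1a2, Adipoq and Plin1) were at 0 in all cells of both groups. Adora2b, an adenosine receptor, had a log2 ratio of 5.43 with 1 activated cell holding its 16 reads, and B4galt1, a Golgi galactosyltransferase, one of 5.13 with 20 reads in 1 activated cell. Fhl2, a LIM domain adaptor, had 2 reads in activated cells and a log2 ratio to the floor of 6.99 (interval from the reads as counted, 5.72 to 10.63). The ratio of Pecam1 was 5.63 without 30 min replicate 11 and 7.63 without activated replicate 3, and those of Adora2b and B4galt1 were 7.72 and 7.75, both to the floor, without activated replicates 4 and 9, their only activated cells with a read.

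Among the genes lower at 30 min, Glo1, which detoxifies the glycolytic by-product methylglyoxal, had no read in 10 cells at 30 min and was read in 10 of 11 activated cells, at a median of 100.3 CPM. It was at least 162-fold lower at 30 min, and in other states it was at 120 CPM before stimulation and 66.7 CPM at 60 min. Tmem238, a small membrane protein, and Prmt7, an arginine methyltransferase, were also at 0 at 30 min and were read in 10 and 9 activated cells (at least 188-fold and 123-fold lower). The remaining genes of this end had a few cells with reads at 30 min. Psmg3, a proteasome assembly chaperone, was read in 1 of 10 and 9 of 11 cells. Alg3, a mannosyltransferase of N-glycan assembly in the ER, was read in 1 of 10 and 11 of 11 cells, and Nans, which makes sialic acid, in 3 and 9 cells. Pes1 and Rpf1, which build the large ribosomal subunit, had log2 ratios of -3.15 and -3.20 and were each read in 2 of 10 and 10 of 11 cells. The size of these differences moved with single cells at 30 min: without the 1 cell concerned, the log2 ratio went from -4.80 to -7.66 for Psmg3 and from -3.15 to -4.70 for Pes1 (replicate 3), from -3.55 to -7.22 for Alg3 and from -3.73 to -5.99 for Nans (replicate 8), and from -3.20 to -4.22 for Rpf1 (replicate 5, and -3.85 without replicate 8). Without these cells Psmg3 and Alg3 had no read at 30 min, so that their second values are to the floor.

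**Figure D3:**
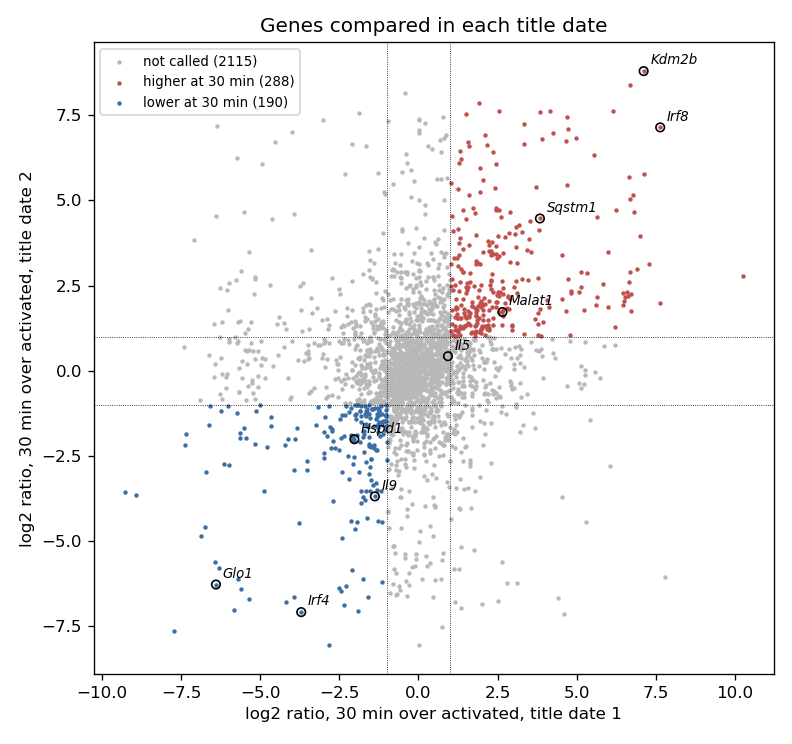
Each point is 1 of the 2593 genes, with its log2 ratio (30 min over activated) on the first title date on the horizontal axis and on the second on the vertical axis; dotted lines mark 2-fold. The 288 red and 190 blue genes pass 2-fold in the same direction on both dates, and grey points far from 0 on a single axis are differences that did not recur on the other date.

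The dates agreed only in part. Over the 2593 genes, 61.1% had the same sign on both dates, and 201 passed 2-fold in opposite directions. Summed over both dates, 579 genes were 2-fold higher and 403 were 2-fold lower.

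Genes of NF-kB signalling were called higher at 30 min or not at all. Of 15 members that reached the CPM minimum, 7 were called higher and 0 lower, against 11.1% and 7.33% of all genes, and 14 had a positive log2 ratio. The median log2 ratio was 1.42 (1.33 and 1.48 on the dates). The called members were the subunits Nfkb1 and Rel, the nuclear IkB proteins Nfkbid, Nfkbiz and Bcl3, the deubiquitinase Tnfaip3 that ends the signal, and the adaptor Traf1.

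Rel was read in every cell at 30 min, at 321 to 1276 CPM with a median of 574 CPM. In activated cells it was at 0 to 473 CPM, with a median of 106 CPM and 9 of 11 cells with a read. The ranges met only between 321 and 473 CPM, and the log2 ratio was 2.49 (2.28 and 2.64 on the dates). Nfkb1, which encodes p105 and p50, was at 275 to 2794 CPM (median 1346) at 30 min and 3.12 to 934 CPM (median 436) in activated cells, a log2 ratio of 1.42. Nfkbia, the inhibitor most directly induced by NF-kB, was not called, with log2 ratios of 1.17 and 0.88, and Rela, the subunit p65, had -0.54 and 1.39.

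Nfkbid, an inhibitor that acts in the nucleus, was read in 8 of 10 cells at 30 min, up to 701 CPM, and in 0 of 11 activated cells, at least 147-fold higher at 30 min. Without 30 min replicate 4 its log2 ratio to the floor went from 7.20 to 6.59. Its start is shown because it had the largest ratio of the NF-kB list (RefSeq, GRCm38.p6, plus strand, chr7:30421481-30421780). The capitals mark 4 matches to the NF-kB letters and 1 to TTCNNNGAA, the latter from -167 to -159 relative to the start, on either strand and without overlap. RefSeq gives 3 starts for this gene, of which this is the first.
Nfkbid: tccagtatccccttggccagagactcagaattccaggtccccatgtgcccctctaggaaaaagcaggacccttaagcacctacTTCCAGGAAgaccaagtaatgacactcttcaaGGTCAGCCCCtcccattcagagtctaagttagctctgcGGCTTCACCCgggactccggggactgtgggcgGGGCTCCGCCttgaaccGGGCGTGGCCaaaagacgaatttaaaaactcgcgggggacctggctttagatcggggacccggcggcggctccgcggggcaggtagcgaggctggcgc

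The NF-kB letters are frequent. They were in 50.8% of the 32851 promoter windows of the same length, TGANTCA in 7.81%, AGATAA in 11.2% and TTCNNNGAA in 8.3%. Of the 12 strongest genes in each direction, 10 higher and 9 lower genes matched a RefSeq promoter, and the NF-kB letters were in 9 of the 10 and 4 of the 9. Genes with several starts, such as Kdm2b, had more windows in which to match.

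A list of immediate early transcription factors, which also holds the interferon regulatory factors Irf4 and Irf8, was called higher more often than lower. Of 12 members that reached the minimum, 5 (Irf8, Jun, Egr2, Ier5 and Crem) were called higher and 1 (Irf4) lower, beside 11.1% and 7.33% of all genes, 11 had a positive log2 ratio, and the median was 1.62 (1.80 and 1.05 on the dates). Irf8 and Irf4, already named above, had its highest and lowest log2 ratios, 8.03 and -4.35. Crem, a factor of the cyclic AMP response, was at 0 to 1674 CPM at 30 min (median 480) and 0 to 412 CPM in activated cells (median 84.9). Egr2 was at 0 to 269 CPM (median 112) and 0 to 57.8 CPM (median 3.12). Myc had a log2 ratio of 0.11 and Batf one of 0.92, and neither was called.

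The study names a set of 15 genes as examples of those transiently induced in the IL-13 index, that is in other cells than these. Several of them were already tied to ILC2 activation. The study also identified transiently induced genes with IL-5 onset as the index. It reports that these were distinct from those of the IL-13 index, although some ontology terms were shared. The genes it identified with the IL-5 index were not used here. Of 13 that reached the minimum, 8 were called higher here and 0 lower, beside 11.1% and 7.33% of all genes, with a median log2 ratio of 2.07. The called members were Rel, Nfkbiz, Bcl3, Tnfaip3, Egr2, Cd274, Klrg1 and Gm49339. The last stands in for Lilrb4a, the gene that the study names, and its model also overlaps Lilr4b on the same strand, so that the call cannot be given to Lilrb4a alone. Of the called members, 4 are also NF-kB genes of the list above. Klrg1, an inhibitory lectin receptor and a marker of mature ILC2s, was at 0 to 1145 CPM (median 632) at 30 min and 0 to 508 CPM (median 105) in activated cells. Il4 and Mir155hg, also in the set, had negative log2 ratios, -1.31 and -0.66, and were not called. The ratio of Mir155hg turned to 0.19 without activated replicate 10.

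Mir155hg (chr16:84703167-84715245, plus strand) is the host transcript of miR-155, which represses its targets through the seed (bases 2 to 8, in capitals in the RefSeq mature sequence). The host gene was read at 0 to 379 CPM at 30 min (median 6.66) and 0 to 842 CPM in activated cells (median 111), and 3 of 10 against 6 of 11 cells were at or above 100 CPM. The mature RNA was not measured.
mmu-miR-155-5p: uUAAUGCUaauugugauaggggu

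Surface genes of costimulation and inhibition were mixed. Of 11, 4 (Gm49339, Klrg1, Cd274 and Cd69) were called higher and 1 (Cd83) lower, beside 11.1% and 7.33% of all genes. Cd274, which encodes PD-L1, was read in 5 of 10 and 2 of 11 cells, with a log2 ratio of 2.58, and Cd83, a maturation marker, in 3 and 6 cells, with -3.53. Without the activated cell in which each was highest, Cd274 was at 5.04 (replicate 3) and Cd83 at -1.77 (replicate 8), and without 30 min replicate 2 Cd83 was at -4.84. Of 7 cytokine and alarmin receptors, 0 were called in either direction. Il1rl1, the gene of the IL-33 receptor ST2, had log2 ratios of 0.68 and 2.02 on the dates, and Il2ra, a chain of the IL-2 receptor, -0.41 and -0.27.

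In a list of STAT, SOCS and Pim genes with a few other genes tied to cytokine signals, 2 of 8 (Cish and Stat6, the latter a factor of IL-4 and IL-13 signalling rather than of IL-2) were called higher and 0 lower, beside 11.1% and 7.33% of all genes. Cish, a feedback inhibitor induced by STAT5, was at 36.1 to 1433 CPM at 30 min (median 584) and 0 to 689 CPM in activated cells (median 242), a log2 ratio of 1.38. Stat5a had a log2 ratio of -1.39 and was read in 7 of 10 and 11 of 11 cells, but it fell short of 2-fold on the second date (-0.76).

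Genes of the actin cytoskeleton were called higher at 30 min or not at all. Of 14, 6 (Tmsb4x, Actb, Arpc5, Actr2, Actr3 and Msn) were called higher and 0 lower, beside 11.1% and 7.33% of all genes, with a median log2 ratio of 1.17 (1.11 and 1.07 on the dates). Actb, cytoplasmic beta-actin, was at 1900 to 9537 CPM (median 5626) at 30 min and 658 to 3092 CPM (median 2020) in activated cells. The ranges met between 1900 and 3092 CPM, and the log2 ratio was 1.47. Actr2, Actr3 and Arpc5 encode parts of the Arp2/3 complex, which branches actin filaments, and had log2 ratios of 1.51, 1.61 and 1.42, that of Actr2 ranging from 0.55 to 2.15 on leaving out single cells. Cfl1 and Arpc4 were near 0 on that scale, at -0.01 and -0.03.

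Genes of protein folding in the ER were called lower at 30 min more often than higher, and most were not called. Of 31 members, 9 were called lower and 1 higher, beside 7.33% and 11.1% of all genes, 26 had a negative log2 ratio, and the median was -1.03, although it was -0.31 on the first date and -1.20 on the second. The called members were Hspa5, the main ER chaperone BiP, its partner Sdf2l1, the disulphide isomerases Pdia4, Pdia6 and P4hb, the translocon genes Sec61b, Ssr1 and Ssr2, and Creld2. Pdia6 was at 0 to 402 CPM at 30 min (median 151) and 198 to 1011 CPM in activated cells (median 686), a log2 ratio of -1.92 (-1.94 and -1.91 on the dates). Hspa5 was at 0 to 549 CPM (median 338) and 299 to 2160 CPM (median 704). The member called higher was Xbp1, the transcription factor of the unfolded protein response, with 486 CPM in the median cell at 30 min and 150 CPM in the median activated cell, and a log2 ratio of 1.53. Gene counts do not tell its spliced form from the unspliced.

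Of 23 vesicle transport genes beyond the ER, 3 (Tmed3, Tmed10 and Lman1, which carry cargo from the ER to the Golgi) were called lower and 1 (Vamp8, of granule fusion) higher, beside 7.33% and 11.1% of all genes. The median log2 ratio was 0.03, and it lay between -0.26 and 0.25 over the alternatives, negative when each cell's CPM was averaged, with TMM factors, DESeq2 factors, Il9 left out of totals, the first date alone and at its lowest on leaving out a cell.

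Of 20 chaperones of the cytosol and mitochondria, 3 (Hspd1, Hspe1 and Cct6a) were called lower and 0 higher, beside 7.33% and 11.1% of all genes. The log2 ratio was negative in 20 of 20, with a median of -0.92 (-0.82 and -0.97). Hspe1, the mitochondrial co-chaperone Hsp10, was at 169 to 1087 CPM at 30 min (median 642) and 538 to 3559 CPM in activated cells (median 1737). Its partner Hspd1 was at 0 to 426 CPM (median 87.7) and 85.9 to 966 CPM (median 556). Both pairs of ranges overlapped, and the log2 ratios were -1.54 and -2.02.

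Of 23 genes of ribosome biogenesis, 5 (Pes1, Ebna1bp2, Nhp2, Rrp9 and Nop58) were called lower and 0 higher, beside 7.33% and 11.1% of all genes, 21 had a negative log2 ratio, and the median was -0.90 (-0.72 and -1.03). Nhp2, a protein of the small nucleolar particles that modify ribosomal RNA, was at 0 to 1478 CPM at 30 min (median 353) and 631 to 3259 CPM in activated cells (median 1668). In glycolysis, 3 of 9 (Gpi1, Tpi1 and Ldha) were called lower and 0 higher, beside the same shares of all genes, with a median of -1.01 (-0.53 and -1.80 on the dates). Tpi1, triose phosphate isomerase, was at 0 to 366 CPM (median 150) and 27.4 to 1945 CPM (median 579). Gapdh, often used as a reference, was not called, with a log2 ratio of -1.44 (-0.97 and -1.80 on the dates), and 1 cell at 30 min, replicate 6, had no read of it.

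**Figure D4:**
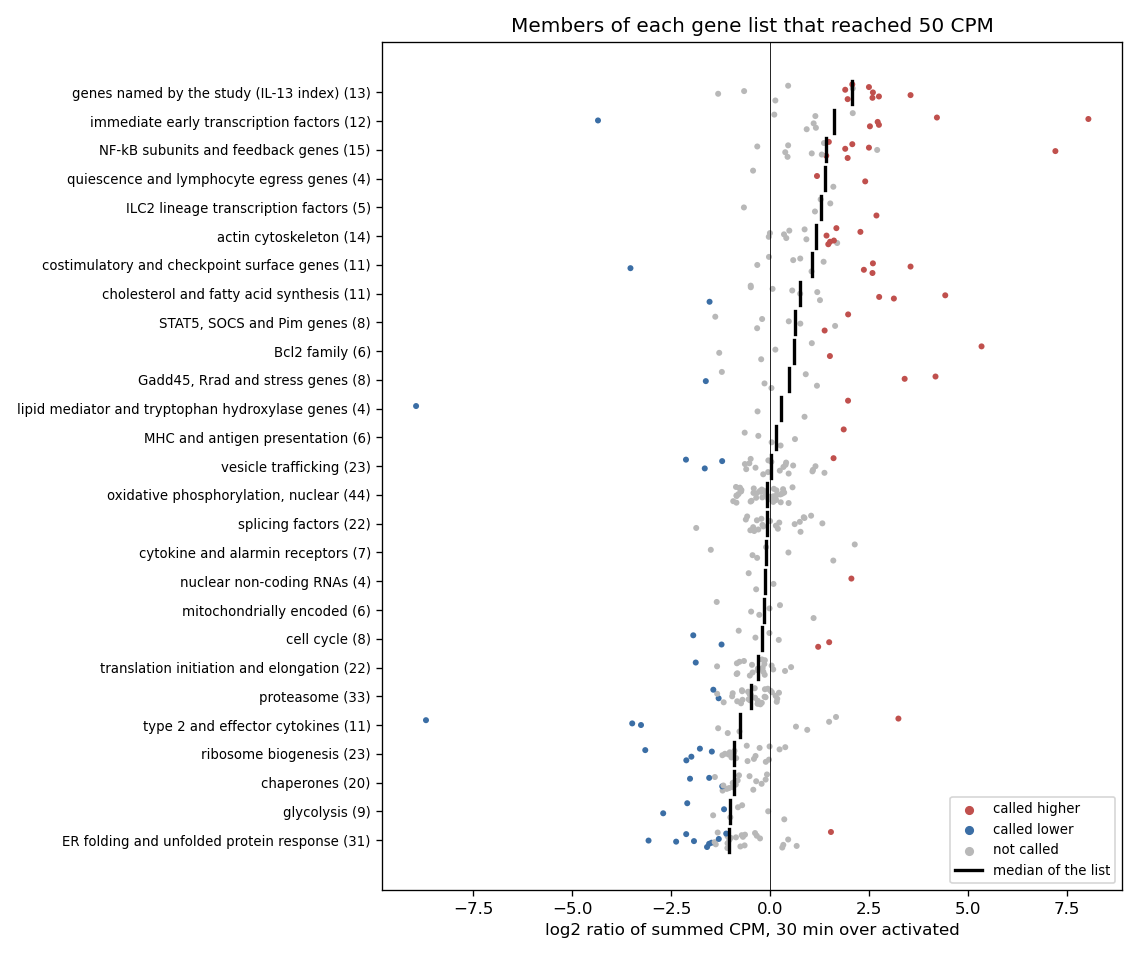
Points are the members of each gene list that reached a mean of 50 CPM, placed by their log2 ratio (30 min over activated) on the horizontal axis, with lists of at least 4 such members ordered by their median (black bar); red and blue are genes called higher and lower. The NF-kB, immediate early and actin lists lie right of 0, the ER folding, glycolysis, chaperone and ribosome biogenesis lists lie left, and oxidative phosphorylation and splicing lie around 0.

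Fewer genes were read per cell at 30 min. At 100000 reads drawn from each cell, 2135 to 3119 genes were read at 30 min (median 2447) and 2331 to 3503 in activated cells (median 2998). The groups overlapped, and the medians differed in the same direction on the first date (2487 and 3184) and the second (2407 and 2970). In the 1069 genes read in at least 70% of the cells of both groups, the SD between cells of log2(CPM + 1) had a median of 2.80 at 30 min and 1.46 in activated cells, and was smaller at 30 min in 265 of them. Whether fewer genes were expressed or less RNA was recovered from these cells cannot be told from the counts, and their part in the genes called lower was not tested.

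The IL-13 index offers other cells under the same labels, 11 at 30 min and 11 activated, that share no cell with these. Of the 288 genes called higher in the IL-5 index, 107 (37.2%) were also at least 2-fold higher on both dates of the IL-13 index, against 268 of all 2593 genes (10.3%), and 13 (4.51%) were 2-fold lower. Of the 190 called lower, 73 (38.4%) were also lower there, against 412 of all (15.9%), and 6 (3.16%) were higher. Sqstm1 had a log2 ratio of 4.94 in the IL-13 index, Kdm2b 3.84, Irf8 1.23 and Irf4 -6.66, side by side with 4.17, 8.50, 8.03 and -4.35 in the IL-5 index. The ratio of Irf8 in the IL-13 index was 6.49 on its first date and -4.97 on its second, and that of Chd2 was -4.61 and 4.67, so that these did not recur there on both dates. Neither did, among others, Nfkbid (-0.79 and 2.47), Prmt7 (-1.98 and 1.46) or Il6 (2.15 and -2.90). Penk was at 0 in the 30 min and activated cells of the IL-13 index. Of the 12 lowest genes here, Tmem238 had a log2 ratio of -0.06 in the IL-13 index, Nans -0.0020, Ncbp2 0.0027 and Rpf1 0.41. The difference between the indexes was not tested.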

How the data were processed

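The files hold 3′ RNA sequencing read counts per gene for single cells. Per the labels and the study's methods, the authors built libraries from SMART-Seq v4 cDNA (3′ DE), aligned reads with TopHat2 to the mouse genome (mm10, GRCm38) and deposited raw HTSeq counts for 46078 Ensembl genes; the strand setting is not given in the sources used here. Of the counted alignments of the kept cells, 28.7% were not unique, 6.26% fell in no gene and 1.95% were ambiguous, and these 5 summary entries (with 2 at 0) stayed out of the totals. Spike-ins were not used here, and some genes are not reported here.

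Within a group, counts were added up across cells and expressed as CPM. The log2 ratio set a group under 3 reads to 3 reads, with an exact (Clopper-Pearson) 95% interval that covers counting error only. Genes with a mean of at least 50 CPM over both groups were compared, and called at 2-fold in both title dates. Members, lists and rules were chosen with earlier results of these data known. Named genes are the 12 strongest in each direction, by the rule given with them, and list members, with examples by mean CPM. Positions are from GENCODE M21. Sequences are from RefSeq (GRCm38.p6). The call rule was also run on simulated counts with known changes. Their spread between cells was preset rather than taken from these cells, so that run does not measure the error of the calls here. Alternatives were the scaling, CPM and fold minimums, cell filters, single dates and each cell left out. Python 3.11.15, numpy 2.4.6, pandas 2.3.3, scipy 1.17.1, matplotlib 3.10.9, R 4.3.3, edgeR 4.0.16 and DESeq2 1.42.0 (both for scaling factors) were used.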

Additional observations from a re-analysis of the deposited data

Results flagged for a closer look

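Of 131 named genes examined, 21 had a cell at 30 min that stood apart from the other 9, its gap exceeding Dixon's 95% limit as a share of the group's range of log2(CPM + 1). The limit was used as a cut-off to flag cells and not as a test between the groups. No chance rate is given for the 21, because that of the limit holds for normally spread values, many of these values were 0 and the genes share cells. The activated cells were not checked in this way. Replicate 6 was the lowest cell for 7 of the flagged genes, at 15.1 CPM for Csf2, 36.1 CPM for Cish, 3.01 CPM for Id2 and 0 CPM for Crem, Hspa5, Hnrnpk and Gapdh. Replicate 2 was lowest for mt-Cytb (1012 CPM), mt-Nd1 (262 CPM), Msn (0 CPM) and Hnrnpc (13.3 CPM). Replicate 5 was lowest for Ier5 and Klrg1 (0 CPM) and Gas5 (2.26 CPM), replicate 11 for Bcl3 (0 CPM) and replicate 3 for Gata3 (0 CPM). Cells that stood above the others were replicate 5 for Irf4 (120 CPM) and Tnfsf8 (1480 CPM), replicate 3 for Psmg3 (76.3 CPM) and Gpi1 (276 CPM) and replicate 8 for Alg3 (111 CPM).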

How the results depend on the processing

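The counts of 288 higher and 190 lower genes were at 266 to 288 and 190 to 225 under other scalings and cell filters, with 255 or more of the higher and 165 or more of the lower genes shared, and, with single cells removed in turn, at 272 to 306 and 184 to 226. Limits on level and fold moved them most: 684 and 650 at 10 CPM, 59 and 47 at 200 CPM, 460 and 379 at 1.5-fold, 117 and 52 at 4-fold, and 579 and 403 on the sums alone. When the 60 and 90 min cells were added to those at 30 min, 242 were higher, 160 of them shared, and 112 were lower, 81 of them shared. The log2 ratio of Il5 (0.65) was 0.74 averaging each cell's CPM, 0.54 with TMM factors, 0.60 with DESeq2 factors, 0.57 with Il9 left out of totals, 0.32 with all transition cells, 0.93 and 0.42 on the single dates, and 1.41 and 1.00 with medians and means of log2(CPM + 1); it was 0.35 without 30 min replicate 7 and 1.30 without activated replicate 7. The median over all genes (0.0044) was -0.0909 with TMM factors, -0.0393 with DESeq2 factors, -0.0855 with Il9 left out, -0.0925 and 0.0938 on the single dates, 0.12 at 10 CPM and -0.14 at 200 CPM, and -0.04 to 0.05 on leaving out a cell. The difference in genes read per cell (-551) was -359 at 5 reads, -697 on the first date, -477.5 with all transition cells and -591 to -511 on leaving out a cell. Medians of the NF-kB, immediate early, actin, ER folding, glycolysis, chaperone and ribosome biogenesis lists kept their sign in all alternatives run, whereas that of the cytokine list turned to 0.65 at 10 CPM. Of the called genes named, those that changed sign were Foxp1 (-0.73 with medians of log2(CPM + 1)), Tph1 (-0.21 with means) and Bcl2 (-0.69 without 30 min replicate 6, 3.07 without activated replicate 11). The cause was not tested. No paired analysis was possible because the values come from no test and the replicate numbers only name cells. The dates, which both states share, enter through the call on each date.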

Other observations

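In 4 further gene groups the shares of called members were near or below the 11.1% higher and 7.33% lower of all genes. Of 44 nuclear genes of oxidative phosphorylation, 0 were called, and the median log2 ratio was -0.08. Of 22 splicing factors, 0 were called, with a median of -0.09 that ranged from -0.26 to 0.10 over the alternatives. Of 33 proteasome genes, 2 (Psmb5 and Psmd7) were called lower and 0 higher, and 27 had a negative log2 ratio, with a median of -0.49 (-0.51 and -0.40 on the dates). Of 22 translation factors, 1 (Eif4ebp1, a brake on cap-dependent translation) was called lower and 0 higher, and 18 had a negative log2 ratio, with a median of -0.31 (-0.32 and -0.28).

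Cholesterol synthesis split by enzyme. Hmgcs1, an early step, and Fdft1, which makes squalene, were called higher at 30 min, with log2 ratios of 4.42 and 3.12, whereas Cyp51, a later step, was called lower, with -1.53. Fdft1 was read in 9 of 10 cells at 30 min, at a median of 182 CPM, and in 3 of 11 activated cells. Without activated replicate 1 the log2 ratio of Hmgcs1 was 6.11, and without activated replicate 8 that of Fdft1 was 4.46, and without 30 min replicate 8 that of Cyp51 was -2.36. In the IL-13 index, Hmgcs1 had a log2 ratio of 2.46 and Fdft1 one of 0.42.

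In the Bcl2 family, 2 of 6 genes were called higher and 0 lower, beside 11.1% and 7.33% of all genes. Bcl2l11, which encodes the death-promoting protein BIM, had a log2 ratio of 5.34 and was read in 6 of 10 and 1 of 11 cells, and Bcl2, which opposes it, one of 1.51 with 5 and 3 cells. Without 30 min replicate 6 these were 4.12 and -0.69, so that the direction of Bcl2 rested on that cell. Without activated replicate 10, the only activated cell with a read of it, Bcl2l11 was at 8.08 to the floor of 3 reads, and without activated replicate 11 Bcl2 was at 3.07. Tph1, the enzyme that starts serotonin synthesis, was at up to 15870 CPM in single cells at 30 min but was read in 6 of 10 and 5 of 11 cells, and its log2 ratio of 1.97 was 0.27 without 30 min replicate 8.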
